A study of Mus musculus with 2 samples.

Results

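The vascular endothelial growth factor (VEGF) family was followed through the cell classes of parathyroid glands derived from mouse embryonic stem cells (mESCs). Its 10 genes were taken by symbol from the gene lists of both deposited matrices, where all 10 were found once among 32287 gene entries. They are the 5 ligands Vegfa, Vegfb, Vegfc, Vegfd and Pgf, the 3 receptor tyrosine kinases Flt1, Kdr and Flt4, and the 2 co-receptors Nrp1 and Nrp2. The study has a single group of 2 replicate single-cell libraries. The hosts were Gcm2-/- mice on a BDF1B6 background and so lacked Gcm2, without which no parathyroid gland develops. They had been complemented with mESCs that carry Pth-tdTomato, a reporter of the parathyroid hormone gene. Glands of 3 mice went into replicate 1 (age 9 to 12 weeks) and glands of 5 mice into replicate 2 (6 to 13 weeks). Chimerism, read from blood cells, was 50 to 70% in the mice of replicate 1 and 60 to 70% in those of replicate 2. Males and females were mixed in each pool, so that no value belongs to 1 animal. The host contributes cells too, and the labels do not say whether a given endothelial cell or fibroblast came from the host or from the stem cells. No gland of another genotype was analysed here, and the comparisons are between cell classes within these glands.

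VEGF-A is the main growth and survival factor of blood vessel endothelium and acts through the kinase encoded by Kdr (VEGFR2). The receptor encoded by Flt1 (VEGFR1) binds VEGF-A tightly with weak kinase activity, and its secreted form acts as a decoy. It is also the receptor for VEGF-B and placental growth factor, the product of Pgf. VEGF-C and VEGF-D act on Flt4 (VEGFR3), which is known for lymphatic growth, and the neuropilins Nrp1 and Nrp2 hold VEGF and semaphorin ligands at the cell surface. Endocrine glands release hormone into dense, often fenestrated capillaries, and VEGF-A from gland cells is known to maintain such vessels.

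Upstream sequences of a ligand and its receptors are shown because their highest classes differed: Flt1 and Kdr were highest in endothelium, where Vegfa was low. All 10 genes had an entry among the RefSeq promoters (GRCm38.p6), and 3 are printed 5′ to 3′ on the minus strand, without the transcribed part. Capitals mark GGAA, or TTCC on the other strand, the core letters of ETS factor sites, which are common in endothelial promoters.
Flt1, chr5:147726012-147726261: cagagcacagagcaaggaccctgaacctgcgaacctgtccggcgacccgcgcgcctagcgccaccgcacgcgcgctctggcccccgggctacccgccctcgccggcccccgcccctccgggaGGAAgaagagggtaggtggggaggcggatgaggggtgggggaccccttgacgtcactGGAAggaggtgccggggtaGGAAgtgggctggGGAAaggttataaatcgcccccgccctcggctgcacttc
Kdr, chr5:75978459-75978705: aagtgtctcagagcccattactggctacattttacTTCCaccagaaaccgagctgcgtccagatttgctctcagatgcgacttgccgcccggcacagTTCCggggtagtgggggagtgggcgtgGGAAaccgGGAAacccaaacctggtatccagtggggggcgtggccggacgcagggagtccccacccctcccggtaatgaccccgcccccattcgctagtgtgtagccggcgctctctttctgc
Vegfa, chr17:46032378-46032627: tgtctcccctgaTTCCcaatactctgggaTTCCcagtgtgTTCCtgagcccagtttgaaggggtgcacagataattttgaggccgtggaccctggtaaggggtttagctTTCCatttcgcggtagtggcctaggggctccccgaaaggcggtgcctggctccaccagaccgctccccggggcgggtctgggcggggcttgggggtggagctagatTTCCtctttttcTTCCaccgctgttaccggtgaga
The letters GGAA or TTCC occurred 4 times upstream of Flt1, 4 times upstream of Kdr and 6 times upstream of Vegfa. Of 32851 RefSeq promoters cut to the same 250 bases, 93.4% held at least 1 match, the median was 3, and 33.4% held 4 or more. For the 247 bases available for Kdr the last share was 32.5%. GGGCGG, counted on both strands, is the core of SP1 sites. It occurred 3 times upstream of Flt1 and 2 times each upstream of Kdr and Vegfa, and in 32.7% of promoters (32.3% for the length of Kdr). A match describes the letters only.

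The values are unique molecular identifiers (UMIs), each standing for 1 captured transcript end, counted per gene and cell barcode. The libraries held 1406 and 3518 barcodes with 41517620 and 88283761 UMIs, of which 1259 and 3319 barcodes were kept. A barcode with at least 5% of its UMIs from Pth was called parathyroid. Barcodes under 1% were typed as endothelial, fibroblast, mural (pericyte and smooth muscle) or immune from 10 markers each, with no VEGF family gene among them. Parathyroid barcodes numbered 673 in replicate 1 and 2243 in replicate 2, endothelial 109 and 271, fibroblast 229 and 447, immune 209 and 280, and mural only 8 and 18. Median depths ranged from 7591 UMIs per barcode in endothelium of replicate 2 to 37999 in parathyroid barcodes of replicate 1. The median parathyroid barcode had 8 of 8 parathyroid markers other than Pth, which did not set that class. The median endothelial, fibroblast and immune barcode had 9, 10 and 9 of its own 10, and the median mural barcode 7 of 10. Those 10 markers set the class, so they are no separate check of its label. Shares of barcodes per class can be set by digestion and sorting, and 3 barcode sequences occurred in both libraries.

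Levels are given as CPM, the UMIs of a gene scaled to a common total of UMIs of its class in 1 library, with 95% Poisson intervals that cover counting error only. CPM compares 1 gene across classes and is not used to rank genes against each other. UMI counts summed per library and class were tested between pairs of classes with edgeR's quasi-likelihood test with the library as a block, for the 4 classes with at least 10 barcodes in each library. A gene was called at a Benjamini-Hochberg adjusted p under 0.05 over all 15010 genes tested. All 10 family members entered the fit. To pass the filter on low counts it is enough to be abundant in a single class. Vegfd, Pgf and Flt4 could thus enter through their highest class among these 4 alone, where a difference then follows. The p-values rest on 2 pools of mice.

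**Figure D1:**
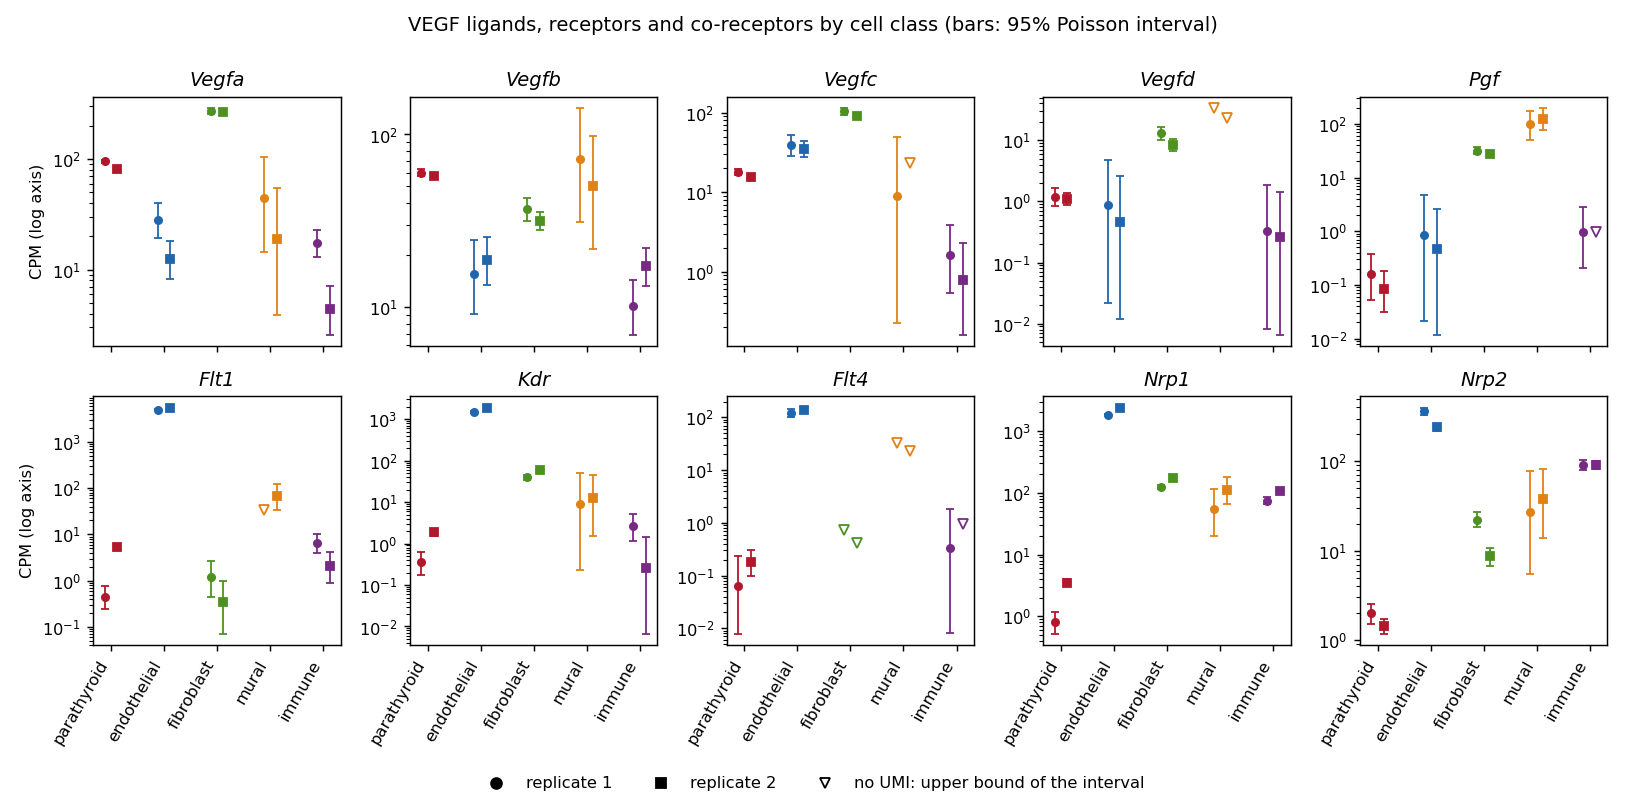
CPM of the 10 genes (log axis, each panel with its own range) in 5 cell classes, circles for replicate 1 and squares for replicate 2, bars for 95% Poisson intervals, open triangles for the upper bound where no UMI was found. Flt1, Kdr, Flt4, Nrp1 and Nrp2 were highest in endothelium in both libraries, while Vegfa, Vegfc and Vegfd were highest in fibroblasts.

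Ligand transcripts lay mainly outside the endothelium and receptor transcripts mainly within it. Vegfa was highest in fibroblasts and next in parathyroid barcodes, Vegfb was higher in parathyroid barcodes than in fibroblasts, and Vegfc and Vegfd were highest in fibroblasts. Pgf was found in mural barcodes and fibroblasts and was near 0 elsewhere. Flt1 and Flt4 were almost confined to endothelium in these libraries, whereas Kdr, Nrp1 and Nrp2 had a second, lower level in fibroblasts or immune cells.

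Vegfa (ENSMUSG00000023951, chromosome 17, 46016993 to 46032369 in GRCm38), the principal angiogenic ligand, was counted at 272 CPM in replicate 1 fibroblasts (interval 257 to 287) and at 264 CPM in those of replicate 2 (253 to 275). In parathyroid barcodes it was at 95.4 CPM (92.0 to 98.9) and 82.0 CPM (79.9 to 84.1). Endothelium had 28.3 and 12.6 CPM, immune cells 17.4 and 4.43, and mural barcodes 44.9 and 18.7 from 5 and 3 UMIs. Fibroblasts were thus the high class and parathyroid barcodes the middle one in each library, with no overlap of libraries between these and the endothelial or immune class. The level was 268 ± 5.37 CPM in fibroblasts and 88.7 ± 9.47 CPM in parathyroid barcodes (SD, n = 2). The fitted log2 difference of parathyroid against fibroblast was -1.53 (SE 0.28, adjusted p = 0.000723). Against endothelium, parathyroid Vegfa was higher by 2.52 (SE 0.37, adjusted p = 0.000202), at 1.73 in replicate 1 alone and 2.68 in replicate 2 alone. Against immune cells it was higher by 3.16, at 2.44 and 4.17 in the separate libraries.

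Per barcode, rather than in CPM, the classes lay closer together. Parathyroid barcodes, the deepest class, held 4.41 and 2.62 Vegfa UMIs on average and fibroblasts 5.86 and 5.21. Pth takes part of the parathyroid total, and without Pth UMIs the parathyroid level was 111 and 97.4 CPM. A Vegfa UMI was found in 91.8% and 85.0% of parathyroid barcodes and in 90.4% and 87.0% of fibroblasts. After each barcode was thinned to 5000 UMIs, with shallower ones left out, the shares were 37.7% and 31.4% in parathyroid barcodes, 65.8% and 64.0% in fibroblasts, and 12.6% and 6.00% in endothelium.

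Because parathyroid barcodes were the most numerous, they nevertheless held most of the Vegfa UMIs recovered. Of the Vegfa UMIs in the 5 classes, 67.4% and 71.2% lay in parathyroid barcodes and 30.5% and 28.2% in fibroblasts. Endothelium held 33 and 27 Vegfa UMIs, where 1.40 and 2.19 would stand to Pth as in parathyroid barcodes. The part of free RNA in that low level was not tested. These libraries read transcript ends, so that the splice forms of Vegfa, which differ in how they bind matrix, cannot be told apart.

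**Figure D2:**
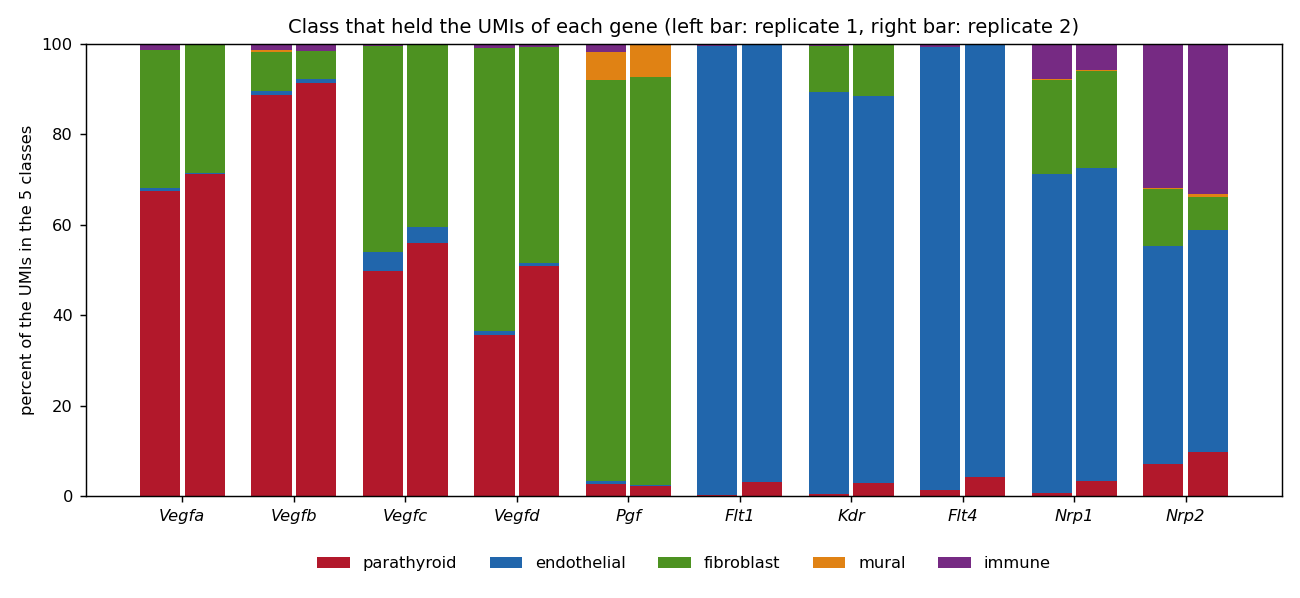
Percent of the UMIs of each gene found in each of the 5 classes (stacked to 100%), left bar replicate 1 and right bar replicate 2. Parathyroid barcodes held 88.7% and 91.3% of Vegfb and endothelium 99.3% and 96.6% of Flt1, and the shares depend on how many barcodes of a class were recovered.

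Vegfb (ENSMUSG00000024962, chromosome 19, 6982473 to 6987651) is a ligand of Flt1 known more for roles in metabolism and cell survival than for vessel growth. Its level was higher in parathyroid barcodes than in fibroblasts, the reverse of Vegfa. It was at 60.1 and 57.3 CPM in parathyroid barcodes, 36.8 and 31.6 CPM in fibroblasts, 15.4 and 18.7 CPM in endothelium and 10.2 and 17.2 CPM in immune cells. The parathyroid libraries lay above all endothelial, fibroblast and immune ones. Mural barcodes had 71.8 (31.0 to 142) and 50.0 CPM (21.6 to 98.5) from 8 UMIs each, an interval that holds the parathyroid level. Parathyroid against fibroblast gave a log2 difference of 0.87 (SE 0.19, adjusted p = 0.0023), and against endothelium 2.06 (SE 0.24, adjusted p = 4.51e-05). Endothelium and immune cells are neighbours in this order, and their difference of 0.05 was not called (SE 0.29, adjusted p = 0.915). Vegfa and Vegfb were found together in 79.8% and 69.5% of parathyroid barcodes.

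Vegfc (ENSMUSG00000031520, chromosome 8, 54077606 to 54187096), the main ligand of Flt4 and a driver of lymphatic growth, reached 104 and 91.6 CPM in fibroblasts. Endothelium had 39.5 and 35.0 CPM, parathyroid barcodes 18.1 and 15.6, and immune cells 1.64 and 0.781. The order of these 4 classes was the same in both libraries, and no neighbours overlapped. Each step passed the test: endothelium differed from fibroblasts by -1.60 on the log2 scale (SE 0.17, adjusted p = 3.03e-05), and parathyroid barcodes differed from endothelium by -0.85 (SE 0.18, adjusted p = 0.00201). Parathyroid against immune gave 3.86. Vegfa and Vegfc UMIs were found together in 64.6% and 55.7% of fibroblasts.

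Vegfd (ENSMUSG00000031380, chromosome X, 164373378 to 164402650), the other ligand of Flt4, was a low transcript. It had 13.2 and 8.39 CPM in fibroblasts and 1.19 and 1.10 CPM in parathyroid barcodes, and 1 UMI per library in endothelium and in immune cells. Parathyroid against fibroblast differed by -3.09 (SE 0.36, adjusted p = 3.33e-05). Since Vegfd could enter the fit through fibroblasts alone, that call follows from its level there. The higher parathyroid level against immune cells, 1.98 on the log2 scale, lay at the threshold with an adjusted p of 0.049, and 7 of the alternatives ended that call, among them DESeq2 (adjusted p = 0.138). It was 1.29 in replicate 1 alone and 1.50 in replicate 2 alone. Against endothelium, 1.17 was not called (adjusted p = 0.276), and the values of the separate libraries were -0.09 and 0.66, so that no direction is given.

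Pgf (ENSMUSG00000004791, chromosome 12, 85166635 to 85177790) encodes placental growth factor, which binds Flt1 and not Kdr. In mural barcodes the 2 libraries gave 98.7 CPM (49.3 to 177) and 125 CPM (76.3 to 193), from 11 and 20 UMIs in 8 and 18 barcodes. Of these UMIs 7 in each library came from 1 barcode, and a Pgf UMI was found in 4 of 8 and 9 of 18 mural barcodes. Fibroblasts had 31.8 and 27.8 CPM, parathyroid barcodes 0.161 and 0.0836, endothelium 0.858 and 0.466 from 1 UMI each, and immune cells 0.984 and 0. Pgf was thus a transcript of the 2 supporting cell types and was near 0 in the parathyroid cells. Over both libraries the mural level was 3.91 times that of fibroblasts (counting interval 2.62 to 5.64), with no test in this grouping because of the few mural barcodes. When classes were taken from clusters, with 10 and 22 mural barcodes in the fit (2 others of that cluster in replicate 2 were outside the Pth limit), fibroblast against mural differed by -1.19 (SE 0.34, adjusted p = 0.0272, with 17% of genes called). That mural class also held endothelial transcripts. In replicate 2, 7 of its 22 barcodes held 3 or more endothelial markers, and its Flt1 level was 646 CPM. In replicate 1 these values were 1 of 10 barcodes and 30.1 CPM. Since Pgf could enter the fit through fibroblasts alone, a call against fibroblasts follows from its level there. Parathyroid against fibroblast differed by -7.87 (SE 0.41, adjusted p = 6.7e-08), and parathyroid against endothelium by -2.10 (adjusted p = 0.218, not called). That last difference passed the threshold when classes came from clusters (-4.22, adjusted p = 0.00963) and without mixed barcodes (-4.66, adjusted p = 0.04).

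**Figure D3:**
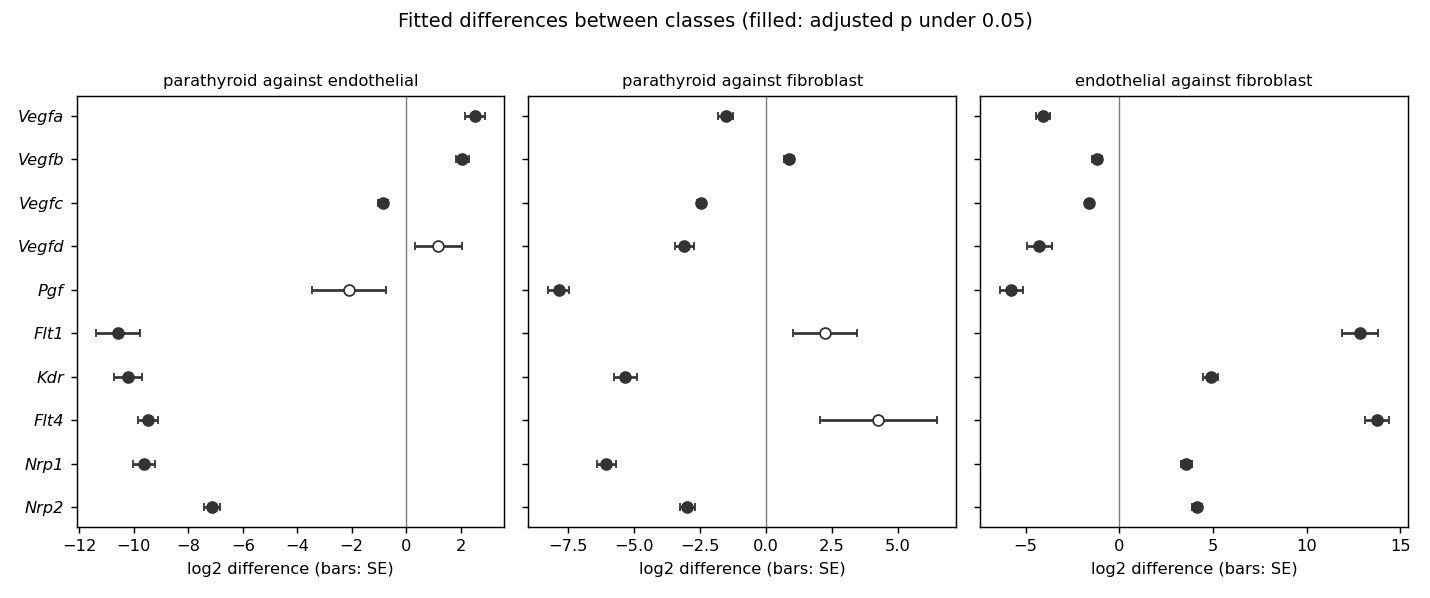
Fitted log2 differences of the 10 genes in 3 class comparisons, positive where the class named first was higher, with bars for the SE, filled points where the adjusted p was under 0.05 and a separate axis range in each panel. All 5 ligands were lower and all 5 receptors and co-receptors higher in endothelium than in fibroblasts.

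Flt1 (ENSMUSG00000029648, chromosome 5, 147561604 to 147726011), the receptor shared by VEGF-A, VEGF-B and placental growth factor, was at 4954 CPM (4827 to 5084) and 5402 CPM (5304 to 5501) in endothelium. The mean was 53.0 and 42.7 UMIs per endothelial barcode, and 97.2% and 98.5% of them held a Flt1 UMI. Fibroblasts had 1.21 and 0.340 CPM from 6 and 3 UMIs, and immune cells 6.56 and 2.08 CPM. Mural barcodes had no Flt1 UMI in replicate 1 and 68.7 CPM in replicate 2, where 7 of the 11 UMIs came from 1 barcode. Over both libraries the endothelial level was 8020 times that of fibroblasts (counting interval 4220 to 17500), and the fitted difference was called (12.85, SE 0.98, adjusted p = 2.48e-06). It was 11.88 in replicate 1 alone and 13.73 in replicate 2 alone. In parathyroid barcodes Flt1 was at 0.450 CPM in replicate 1 and 5.43 CPM in replicate 2. Of the 390 Flt1 UMIs in replicate 2, 356 lay in 13 barcodes that also held 3 or more endothelial markers, and the rest came to 0.478 CPM. Parathyroid barcodes against endothelium gave -10.59, at -13.38 in replicate 1 alone and -9.96 in replicate 2 alone. Against fibroblasts the difference of 2.25 was not called (adjusted p = 0.134), and it turned to -3.21 when classes were taken from clusters (adjusted p = 0.000312). In that grouping parathyroid barcodes had 0.427 and 0.474 CPM of Flt1 and fibroblasts 1.20 and 7.16 CPM, with 64 Flt1 UMIs in the fibroblasts of replicate 2 against 3 in the main grouping. The transcript ends do not separate membrane-bound from secreted Flt1.

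Kdr (ENSMUSG00000062960, chromosome 5, 75932827 to 75978458), the main signalling receptor for VEGF-A, was at 1488 CPM (1419 to 1560) and 1843 CPM (1786 to 1901) in endothelium. Fibroblasts had 40.1 CPM (34.7 to 46.1) and 59.8 CPM (54.8 to 65.2), from 198 and 528 UMIs. Mural barcodes held 1 and 2 UMIs, immune cells 2.62 and 0.260 CPM, and parathyroid barcodes 0.354 and 1.85 CPM. Of the 133 parathyroid Kdr UMIs in replicate 2, 96 lay in the 13 barcodes with 3 or more endothelial markers. The rest came to 0.52 CPM. Fibroblasts formed a separate middle level, above the parathyroid and immune libraries and below the endothelial ones. The fitted differences were 4.88 for endothelium against fibroblasts (SE 0.40, adjusted p = 3.9e-06), 5.20 for fibroblasts against immune cells (SE 0.64, adjusted p = 5.63e-05) and -5.34 for parathyroid barcodes against fibroblasts (SE 0.44, adjusted p = 2.24e-06). The middle of these was 3.85 in replicate 1 alone and 7.26 in replicate 2 alone. The last was -6.76 and -5.01.

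The Kdr of fibroblasts was spread over many barcodes and was not accompanied by Flt1. A Kdr UMI was found in 98 of 229 and 196 of 447 fibroblasts, or 18.7% and 20.3% after thinning to 5000 UMIs, against 0% and 0.407% of parathyroid barcodes. Endothelial markers in fibroblasts summed to 88.6 CPM in replicate 1 and 28.6 CPM in replicate 2. Pecam1 alone made up 67.8 CPM of this sum in replicate 1 and 5.55 CPM in replicate 2. The fibroblasts with a Kdr UMI held 198 and 528 Kdr UMIs but 5 and 1 Flt1 UMIs. Their median number of endothelial markers was 1 and 0 of 10, as in fibroblasts without Kdr. At least 2 of these markers were held by 21 of 98 fibroblasts with a Kdr UMI and 16 of 131 without in replicate 1, and by 12 of 196 and 15 of 251 in replicate 2. Among fibroblasts with 3 or more Kdr UMIs they were held by 5 of 24 and 8 of 68. Median depth was higher in the fibroblasts with a Kdr UMI (24729 against 19179 UMIs in replicate 1, 20798 against 18592 in replicate 2). Had Kdr stood to the endothelial markers in fibroblasts as it does in endothelium, 65.1 and 42.0 Kdr UMIs would be present, and the observed numbers were 3.04 (2.63 to 3.50) and 12.6 (11.5 to 13.7) times that. For Flt1 the same ratio was 0.0277 and 0.0243. In replicate 1 the ratios of both genes rest largely on Pecam1. The part of free or mixed endothelial RNA in the fibroblast Kdr level was not tested. Vegfa and Kdr UMIs were found together in 40.2% and 40.5% of fibroblasts.

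Flt4 (ENSMUSG00000020357, chromosome 11, 49609263 to 49652739), the receptor for VEGF-C and VEGF-D, was at 120.1 CPM (101 to 142) and 136 CPM (121 to 153) in endothelium. No Flt4 UMI was found in fibroblasts or mural barcodes, immune cells had 1 UMI, and parathyroid barcodes 2 and 13. Of the 13 UMIs in replicate 2, 10 lay in the parathyroid barcodes with 3 or more endothelial markers. Flt4 was thus a transcript of the endothelial class, at least 599-fold higher than in fibroblasts when 3 UMIs over that class are taken as the limit (adjusted p = 2.26e-07). Since Flt4 could enter the fit through endothelium alone, that call follows from its level there. A Flt4 UMI was found in 61.5% and 60.1% of endothelial barcodes. Prox1, the transcription factor that defines lymphatic endothelium, was found in only 7.34% and 2.58%. All 4 of Flt1, Kdr, Nrp1 and Flt4 were found together in 56.9% and 58.3% of endothelial barcodes.

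Nrp1 (ENSMUSG00000025810, chromosome 8, 128358604 to 128503363), the co-receptor of Kdr and of class 3 semaphorins, was at 1809 and 2327 CPM in endothelium. Fibroblasts had 126 and 174 CPM, immune cells 75.1 and 109, mural barcodes 53.9 and 113, and parathyroid barcodes 0.803 and 3.51. In replicate 2, 145 of the 252 parathyroid Nrp1 UMIs lay in the 13 barcodes with 3 or more endothelial markers. The rest came to 1.5 CPM. Endothelium was highest and parathyroid barcodes were lowest in both libraries. Fibroblasts came second, above immune and mural barcodes, whose values overlapped with each other. The mural interval of replicate 2 (66.7 to 178 CPM, from 18 UMIs) also holds the fibroblast level. Endothelium against fibroblasts gave 3.59 (SE 0.30, adjusted p = 5.11e-06), while fibroblasts against immune cells, 0.66 (SE 0.29, adjusted p = 0.0722), was not called. It passed the threshold without the filter on low counts (0.69, adjusted p = 0.000122) and when barcodes of high doublet score (0.64, adjusted p = 0.0125) or with markers of another class (0.62, adjusted p = 0.00172) were left out. Kdr, Flt1 and Nrp1 UMIs were found together in 93.6% and 96.7% of endothelial barcodes.

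Nrp2 (ENSMUSG00000025969, chromosome 1, 62703285 to 62818695), a co-receptor of Flt4 and of class 3 semaphorins, had another distribution. It was at 361 and 239.7 CPM in endothelium, 91.2 and 90.6 CPM in immune cells, 22.3 and 8.61 CPM in fibroblasts and 1.99 and 1.44 CPM in parathyroid barcodes. The order of these 4 classes was the same in both libraries, with immune cells above fibroblasts. Endothelium against immune cells gave 1.41 (SE 0.23, adjusted p = 0.000652), fibroblasts against immune cells -2.75 (SE 0.26, adjusted p = 7.97e-06) and parathyroid barcodes against fibroblasts -2.98. Fibroblasts against immune cells gave -2.03 in replicate 1 alone and -3.39 in replicate 2 alone. Mural barcodes had 26.9 and 37.5 CPM. In replicate 1, 24 of the 110 fibroblast UMIs of Nrp2 came from 1 barcode. Of all Nrp2 UMIs, 31.8% and 33.2% lay in immune cells.

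Counted over the family, 8 of 10 genes were called between parathyroid barcodes and endothelium, 2 higher and 6 lower in parathyroid, where 56.4% of all genes tested were called (31.2% higher and 25.2% lower). Vegfa and Vegfb were the 2 that were higher. Between parathyroid barcodes and fibroblasts 8 were called, 1 higher and 7 lower, against a background of 61.8% (31.2% higher and 30.6% lower). Between endothelium and fibroblasts all 10 were called, with 5 higher and 5 lower, against 44.4% (19.7% and 24.7%). The 5 higher genes were the receptors and co-receptors and the 5 lower ones the ligands. Between parathyroid and immune barcodes 6 were called, 4 higher and 2 lower, against 66% (35.5% and 30.6%). Between endothelium and immune cells 6 were called, all higher, against 46.3% (21.5% higher), and between fibroblasts and immune cells 7, with 6 higher and 1 lower, against 58.3% (30.1% and 28.2%). With such backgrounds the number called says little about the family. The counts include Vegfd, Pgf and Flt4, which could enter through their highest class among the fitted ones alone. A call of these genes against that class is no separate support. The split of directions by role is what the levels above show.

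Among parathyroid barcodes, Vegfa and Vegfc were lower in the group with the largest share of Pth than in the group with the smallest in both libraries, while Vegfb was lower in replicate 1 and higher in replicate 2. In replicate 2, Vegfa was at 112 CPM (95.3 to 131) in 55 barcodes with 5 to 10% Pth and 62.7 CPM (55.5 to 70.5) in 172 barcodes with 20% or more. In replicate 1 the same ends were 119 CPM (102 to 138) in 43 barcodes and 83.6 CPM (62.8 to 109) in 25. The intervals of the 2 ends were apart in replicate 2 and overlapped in replicate 1. Without Pth UMIs in the total they were 123 and 80.0 CPM in replicate 2, and 130.2 and 106 CPM in replicate 1. Vegfc went from 32.5 to 10.5 CPM in replicate 2 and from 29.6 to 20.1 CPM in replicate 1, with its lowest value of 11.4 CPM in the group just before the last, while Vegfb went from 44.9 to 58.6 CPM in replicate 2 and from 51.8 to 40.2 CPM in replicate 1. Mixed barcodes were most evident at the low end of replicate 2, where Flt1 stood at 102 CPM from 148 UMIs in 3 of the 55 barcodes, and their part in these values was not tested. The bins are not replicates, and no test was made.

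**Figure D4:**
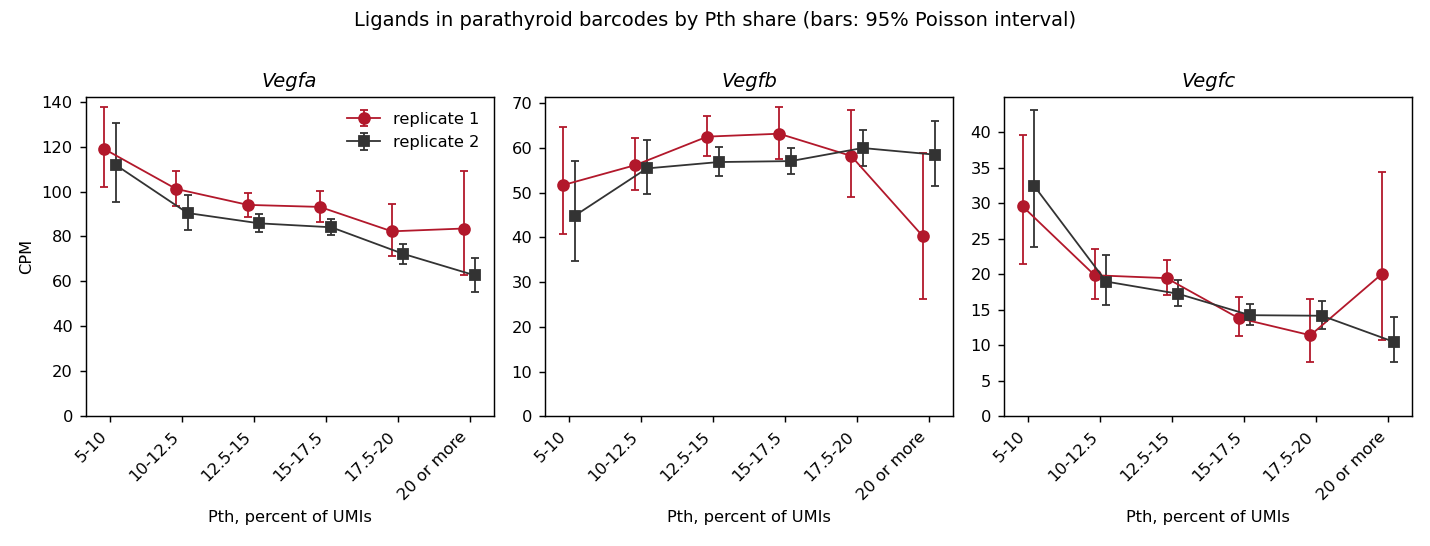
CPM of Vegfa, Vegfb and Vegfc in parathyroid barcodes grouped by the percent of UMIs from Pth (horizontal axis), circles for replicate 1, squares for replicate 2 and bars for 95% Poisson intervals. In replicate 2 Vegfa was 112 CPM in the lowest and 62.7 CPM in the highest group.

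Endothelial barcodes were split by subtype markers into capillary (63 and 163 barcodes), arterial (12 and 19), venous (5 and 6) and lymphatic (3 and 4), with 26 and 79 unresolved. Capillary and arterial barcodes had like levels of Kdr, at 1623 and 1952 CPM in capillary and 1903 and 1951 CPM in arterial barcodes. Venous barcodes were lower for Kdr, at 409 and 676 CPM, and for Nrp1, at 304 and 956 CPM against 1982 and 2364 CPM in capillary ones. Nrp2 was highest outside the capillary and arterial groups: venous barcodes had 760 and 370 CPM and lymphatic ones 997 and 397, against 183 and 92.9 in arterial barcodes. The lymphatic group had the highest Flt4, at 965 CPM (651 to 1378) and 917 CPM (646 to 1264). Capillary barcodes still had 109 and 134 CPM of Flt4, and of 67 and 163 barcodes with a Flt4 UMI only 3 and 4 lay in the lymphatic group. The lymphatic and venous groups hold few barcodes, and their values describe those cells only. Within endothelium, Vegfc was at 117 and 89.2 CPM in venous and 18.1 and 32.5 CPM in capillary barcodes.

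Fibroblasts were split by 3 pairs of subset genes. Barcodes with A2m and Spon1 (101 and 291) had 293 and 306 CPM of Vegfa, and those with Pappa2 and Cilp (20 and 29) had 407 and 286 CPM. Those with Apod and Cxcl14 (98 and 117) had 186 CPM (168 to 206) and 155 CPM (139 to 172), the lowest of the 3 in both libraries. The Apod Cxcl14 barcodes instead had the highest Vegfc (128 and 107 CPM), Pgf (40.8 and 46.4 CPM) and Nrp1 (164 and 227 CPM). Kdr differed little among the subsets, at 41.0 and 63.7 CPM, 37.7 and 54.1 CPM, and 42.6 and 41.7 CPM in the same order of A2m Spon1, Apod Cxcl14 and Pappa2 Cilp. Nrp2 was at 38.8 and 19.1 CPM in Apod Cxcl14 barcodes, at 13.8 and 5.67 CPM in A2m Spon1 ones, and had no UMI in Pappa2 Cilp ones.

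**Figure D5:**
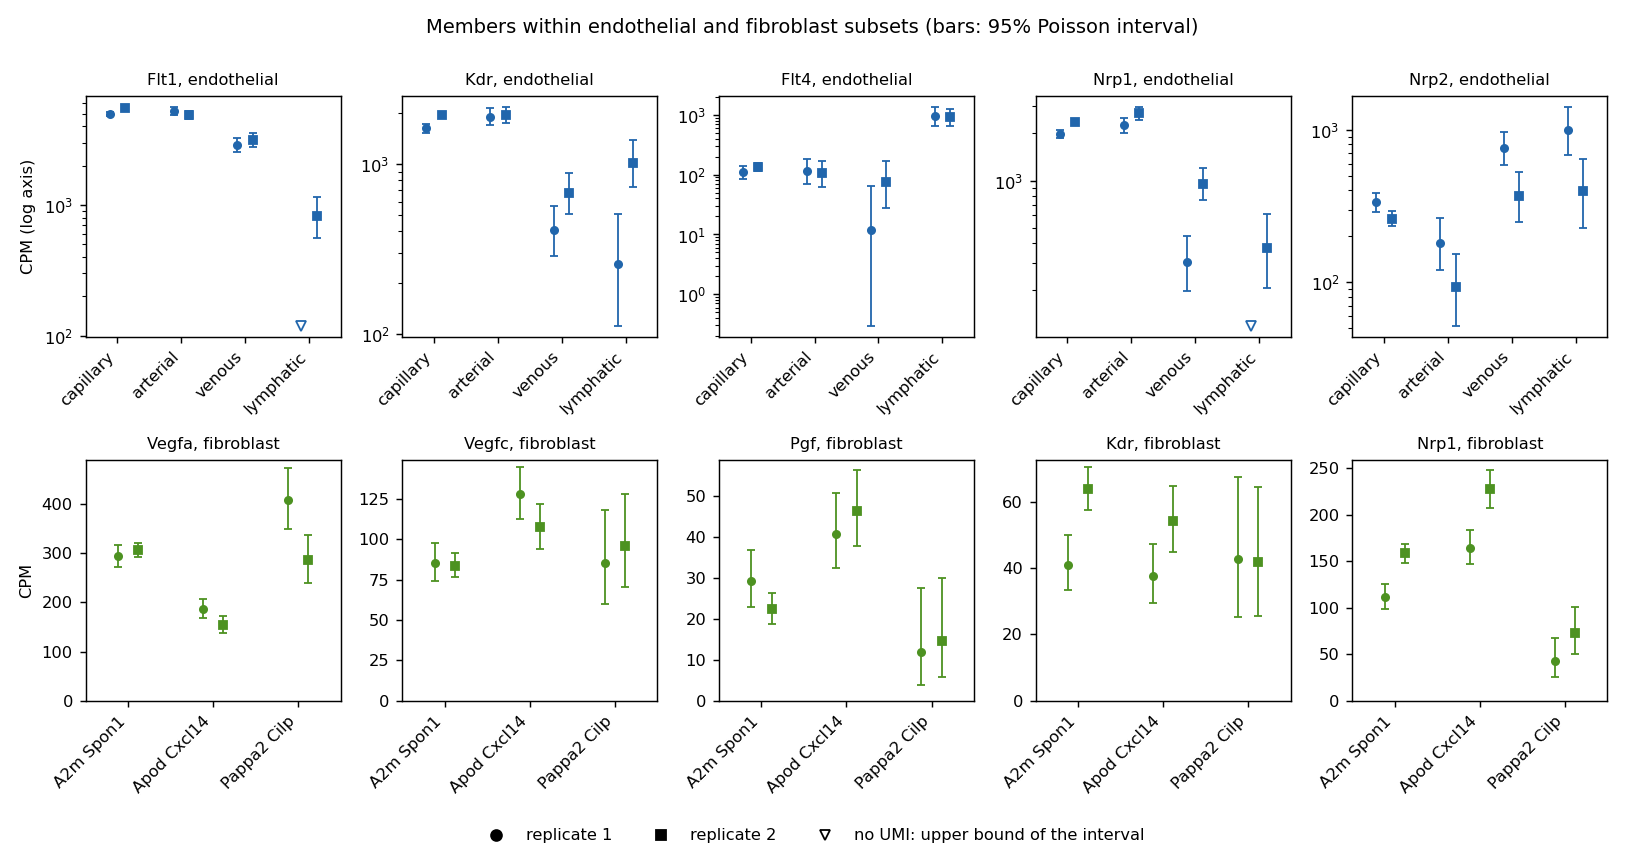
CPM of receptors in endothelial subsets (upper row, log axis) and of ligands, Kdr and Nrp1 in fibroblast subsets (lower row, linear axis from 0), circles for replicate 1, squares for replicate 2, bars for 95% Poisson intervals and open triangles for the upper bound where no UMI was found. Flt4 was highest in lymphatic barcodes, and Vegfa was lowest in Apod Cxcl14 fibroblasts.

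Among immune cells the co-receptors separated by subtype. Macrophages (72 and 135 barcodes) had 115 and 150.0 CPM of Nrp1 and 109 and 125 CPM of Nrp2. Dendritic cells (36 and 37) had 205 and 95.03 CPM of Nrp2 and 54.0 and 26.2 CPM of Nrp1. The group of T, ILC and NK cells (71 and 79) had Nrp1 at 58.1 and 94.5 CPM and Nrp2 at 1.12 CPM in replicate 1 and no UMI in replicate 2. Nrp2 was thus a transcript of the myeloid groups here, while Nrp1 was found in lymphoid ones as well. Neutrophils (23 and 15 barcodes) had 67.3 CPM (33.6 to 121) and 25.6 CPM (3.10 to 92.5) of Vegfa, from 11 and 2 UMIs.

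A Gfp entry is part of the gene list, and the labels do not say what it marks. Endothelial barcodes with a Gfp UMI (88 and 214) had 1464 and 1830 CPM of Kdr, and those without (21 and 57) had 1624 and 1899 CPM. In fibroblasts, Vegfa was at 271 and 269.8 CPM with a Gfp UMI and at 276 and 241 CPM without. These values lay close together for the receptor and the ligand, and depth differed between the groups (medians of 22635 and 18717 UMIs for fibroblasts of replicate 1).

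Other genes of the pathway were read from lists, leaving out the typing markers Plvap and Ptprb. Their counts stand against 19.7% of all genes higher and 24.7% lower between endothelium and fibroblasts, and 31.2% higher and 25.2% lower between parathyroid barcodes and endothelium, and nothing is called particular to a list. As with Flt4, some listed genes could enter the fit through a single class alone, among them Esm1, Dll4 and Sema3f through endothelium. Calls of such genes against that class follow from their level there and are no separate support. Of 15 genes known to respond to VEGF in endothelium, 11 were higher and 1 lower in endothelium than in fibroblasts (median log2 difference 2.94, all genes -0.11). Esm1, a proteoglycan of sprouting endothelium, had 457 and 469 CPM in endothelium and 0.202 and 0.113 in fibroblasts (difference 11.39, adjusted p = 1.84e-07). Pdgfb, the growth factor that recruits pericytes, had 287 and 327 CPM in endothelium against 0.202 and 0 in fibroblasts. Dll4, a Notch ligand of tip and arterial cells, had 145 and 86.8 CPM. Between parathyroid barcodes and endothelium 1 of the 15 was higher and 14 lower (median -5.60, all genes 0.22), with Igfbp3 at 5.46 and 5.59 CPM in parathyroid barcodes, 1662 and 1950 CPM in endothelium and 914 and 1021 CPM in fibroblasts. Adamts1, a secreted protease, differed by -6.76 between parathyroid barcodes and endothelium. The list is made of endothelial genes, and its direction is no independent support for a response to VEGF.

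Of 14 genes of VEGF receptor signalling and its regulation, 5 were higher and 2 lower in endothelium than in fibroblasts (median 0.47), or 7 of 14 where 44.4% of all genes were called. Rasip1, a small GTPase regulator of endothelial junctions, had 265 and 314 CPM in endothelium and 0.202 and 0.113 CPM in fibroblasts. Nos3, endothelial nitric oxide synthase, and Plcg1, a phospholipase that binds Kdr, were higher by 6.88 and 1.69. In parathyroid barcodes against endothelium 2 were higher and 7 lower (median -1.29). Kif13b, a kinesin known to carry Kdr protein to the endothelial surface, was 1 of the 2 higher genes, with 927 and 1027 CPM in parathyroid barcodes and 60.9 and 64.4 CPM in endothelium (4.25, SE 0.22, adjusted p = 8.55e-08). Kdr itself was near 0 in those parathyroid barcodes.

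VEGF-C is made as a precursor and is activated with the help of CCBE1 and proteases. Of 10 tested genes of this process, 2 were higher and 6 lower in endothelium than in fibroblasts (median -1.85), and 2 higher and 6 lower in parathyroid barcodes than in endothelium (median -0.79). All genes were called at 44.4% and 56.4% in these comparisons. Ccbe1 had 226 and 128 CPM in parathyroid barcodes, 165 and 114 CPM in fibroblasts and 3.43 and 2.80 CPM in endothelium. It was thus high in fibroblasts and parathyroid barcodes and low in endothelium. The differences were 6.04 for parathyroid barcodes against endothelium (adjusted p = 1.05e-06) and -5.66 for endothelium against fibroblasts (adjusted p = 3e-06). Vegfc, in contrast, was higher in endothelium (39.5 and 35.0 CPM) than in parathyroid barcodes (18.1 and 15.6 CPM). Plat, tissue plasminogen activator, was a fibroblast transcript at 336 and 240.0 CPM, against 33.5 and 34.1 CPM in endothelium. Pcsk5, a proprotein convertase, was lower in endothelium than in fibroblasts (-2.89), and Pcsk6 was lower in parathyroid barcodes than in endothelium (-7.20).

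Of 12 tested semaphorin and plexin genes, whose products share the neuropilins with VEGF, 5 were higher and 4 lower in endothelium than in fibroblasts (median 0.52), and 3 were higher and 6 lower in parathyroid barcodes than in endothelium (median -0.99), beside 44.4% and 56.4% of all genes called. Sema3a, a ligand of Nrp1, was at 365 and 249.8 CPM in fibroblasts and 6.00 and 10.3 CPM in endothelium (-5.28, adjusted p = 1.76e-07). Sema3f, a ligand of Nrp2, was at 182 and 179 CPM in endothelium and under 1 CPM in fibroblasts. The receptor subunit Plxnd1 was at 171 and 209 CPM in endothelium and 32.6 and 34.7 CPM in fibroblasts. Plxna4, another such subunit, was lower in parathyroid barcodes than in endothelium (-7.63).

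The hypoxia genes include regulators of Vegfa transcription. Of 18 genes, 6 were higher and 5 lower in endothelium than in fibroblasts (median 0.28), and 3 higher and 7 lower in parathyroid barcodes than in endothelium (median -0.24, or -0.29 with a gene of no UMI at its bound). The 10 of 18 called in the latter are near the background of 56.4%. Epas1, a hypoxia-inducible factor subunit, was at 696.5 and 616 CPM in endothelium, 22.9 and 6.01 CPM in fibroblasts and 16.2 and 14.5 CPM in parathyroid barcodes. Ddit4, an inhibitor of mTORC1, was at 164 and 236 CPM in endothelium and 11.3 and 10.0 CPM in parathyroid barcodes. Adm, adrenomedullin, was at 107 and 86.0 CPM in fibroblasts, above 15.4 and 21.0 CPM in endothelium and 2.60 and 1.55 CPM in parathyroid barcodes. Of 13 other angiogenic ligands and modulators, 6 were higher and 7 lower in endothelium than in fibroblasts (median -2.53), and 2 higher and 7 lower in parathyroid barcodes than in endothelium (median -1.71), where 44.4% and 56.4% of all genes were called. Cxcl12, a chemokine, was at 251 and 387 CPM in endothelium and 13.0 and 6.91 in fibroblasts, Angptl4 was lower in endothelium than in fibroblasts (-6.27), and Efna1 was lower in parathyroid barcodes than in endothelium (-3.50).

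The genes with the most similar pattern were taken by Pearson's r of log2(CPM + 1) over the 10 sums of 5 classes and 2 libraries, among genes with at least 20 CPM in the class where the member is highest. Sums of a class share its cell type and sums of a library its mice, so that r is a description. For Vegfa these were Mbtps1 (r = 0.953), Scd2 and Ehbp1, and for Vegfc Fkbp14 (0.964), Tex264 and Atp8b1. For Flt1 they were Esm1 (0.985), Ecscr and Thrsp, for Kdr Bace2 (0.971), Chst15 and Map4k3, and for Flt4 Grrp1, Ccm2l and Ccl21a (0.999). For Pgf they were Gm11627, Daam2 and Kcne4 (0.989 for the last), and for Vegfb Tbc1d19 (0.979), Atp6v0e2 and Glo1, both resting in part on the few mural UMIs. For Nrp1 they were Xiap (0.985), Parp10 and Socs1, and for Nrp2 Arhgap31 (0.983), Srsf7 and Stim2. Vegfd was under 20 CPM in every class and had none.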

How the data were processed

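Single-cell libraries of mESC-derived parathyroid glands were made with a 3' kit after flow sorting to exclude doublets, per the labels' protocols. The authors deposited raw UMI counts per gene and barcode, made with Cell Ranger 7.0.0 on mm10, per the submitters' processing notes. The cell-calling rule was not given in the sources used here.

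Kept barcodes had at least 500 genes, under 15% of UMIs from mitochondrial genes and under 5% from haemoglobin genes, and 147 and 199 failed. Barcodes with less than 1% Pth took the type with the largest share of markers held, given at least 3 markers and 1.5 times the share of the next type. This left 16 and 38 barcodes untyped, and 15 and 22 lay between the Pth limits. Scrublet called 21 and 7 doublets, which were kept in the main grouping, and barcodes with a score of at least 0.25 were left out in an alternative.

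Class sums (8 sums of 4 classes, 3 residual degrees of freedom) were fitted with edgeR 4.0.16 (TMM, filterByExpr, quasi-likelihood test) in R 4.3.3, with the library as a block, since all classes in it share their mice. The differences between the libraries correlated between classes at 0.07 to 0.26 over 15066 genes. Intervals are exact Poisson and Clopper-Pearson intervals and, like the limit of 3 counts for a value of 0, cover counting error only. In counts simulated for endothelium against fibroblasts over 12513 genes, 92% of 100 genes changed 4-fold and 61% of 100 changed 2-fold were recovered, and 0.065% of unchanged genes were called. The simulation gave all classes the fibroblast profile, with the same spread for every gene and no library effect. Its changed genes were few and not of low count. The real classes differ far more, so these rates need not hold for them. Values of a single library are log2 ratios of CPM with 0.5 UMIs added, without TMM scaling. DESeq2 1.42.0 was an alternative. Clusters for another alternative were made with scanpy 1.11.5.

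All 10 members are named. For each list the called genes of smallest p, up to 3, are named in 2 comparisons. The members, lists and rules were chosen with earlier results of these data known.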

Additional observations from a re-analysis of the deposited data

How the results depend on the processing

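The 60 differences of the 10 genes over 6 class comparisons were recomputed under alternatives. Without the replicate block, all 60 kept their direction and their side of the threshold; the number of genes called between endothelium and fibroblasts was 5891, against 6662 with it. DESeq2, RLE size factors, Pth limits of 10 and 0.5%, and a minimum of 5 markers each left 59 as they were, and the exception was Vegfd in parathyroid against immune barcodes. With classes from clusters, 51 of the 60 were left as they were, 7 rose past the threshold and 1 fell below it. Among the 7 were Flt1 (-7.68, from -0.51) and Kdr (-6.92, from -0.14) in parathyroid against immune barcodes. The immune class of that grouping held 236 and 470 Flt1 UMIs, against 20 and 8 in the main grouping. The remaining difference, of Flt1 in parathyroid against fibroblast barcodes, turned to -3.21 (main 2.25, not called). It was -1.50 without replicate 2 and 3.78 without replicate 1. Leaving out barcodes with 3 or more markers of another class raised 6 differences past the threshold, among them Flt1 in parathyroid against immune barcodes (-3.04, from -0.51). RLE size factors shifted the differences of parathyroid barcodes by a median of -0.14 against immune cells and -0.13 against endothelium, and the direction of no called difference changed. The barcode of most UMIs was left out of each class as an alternative added after seeing the data. Counts of called genes could not be made without replicate 1 or without replicate 2, since no residual degrees of freedom remain. Mural barcodes and the endothelial subsets are limited by their few UMIs.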
